A study of Mus musculus with 15 samples.

Results

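The genes described here are 10 markers of the red pulp macrophage, the resident scavenger cell of the spleen, measured in spleens of mice with NOTCH1-driven T cell leukemia. They were taken by symbol from a table of 39827 mouse genes, and all 10 were found. They are Cd5l, Vcam1, Spic, Hmox1, Slc40a1, Adgre1, C1qa, C1qb, C1qc and Cd163. RNA-seq was done on 15 libraries in 5 groups of 3. Every leukemia came from marrow progenitors carrying ΔE-NOTCH1, a truncated NOTCH1 that needs no ligand, which had been given to lethally irradiated C57BL/6J mice. WT0 with PBS, WT0 with ERG-245 and WT6 were Bcat1 wild type, and KO7 and KO3 were Bcat1 knock-out. ERG-245, an inhibitor of the branched-chain aminotransferase BCAT1, was given by the intraperitoneal route, 3 times at 30 mg per kg with 8 h between doses. Mice of the other 4 groups are labelled as treated with PBS. The labels call the material leukemic T cells of spleen and state no sort at harvest. Nor do they say if the 3 libraries of each group were made from different mice, so p-values between groups cover the variation among libraries only, and this can be technical. The number in a group's name is taken to mark a leukemia, which the labels do not spell out. The labels give no age.

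Red pulp macrophages engulf worn red cells, break their heme down and return the iron to the blood. The transcription factor Spi-C, encoded by Spic, is required for their development and is itself induced by heme. CD163 takes up hemoglobin bound to haptoglobin, heme oxygenase 1 (Hmox1) opens the heme ring, and ferroportin (Slc40a1) exports the freed iron. Vcam1 encodes an adhesion molecule that holds erythroblasts and lymphocytes to the macrophage, Adgre1 the F4/80 surface antigen, and Cd5l a secreted scavenger receptor protein. C1qa, C1qb and C1qc encode the chains of C1q, which starts the classical complement pathway and which macrophages are a main source of. Other cells also make some of these products: endothelium and stroma make Vcam1, and many stressed cells make Hmox1.

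Total counts were 17441292 to 28902573 per library. The T cell markers, which check the labelled cell type, summed to 3350 to 5630 CPM (the count relative to the library total, scaled by TMM) in the group means, and each of the 12 had counts in every group. Bcat1 averaged 17.8 CPM in the PBS libraries of WT0, 13.3 in those with ERG-245 and 35.2 in WT6, and among the knock-outs 2.09 in KO7 and 6.95 in KO3. The leading T cell receptor beta segment differed in each group. Trbv17 held 39.6% of such counts in WT0 with PBS and 0.93% with ERG-245, so that treatment and leukemic clone cannot be told apart in that comparison. Libraries of a group differed by more than counting noise (chi-square per degree of freedom 1.58 to 3.53 between pairs). This added spread was small: edgeR's coefficient of variation was 2.18% among libraries, against 41.92% among leukemias.

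The C1q genes are neighbours on chromosome 4 of GRCm38, all on the minus strand, with C1qb at 136880126 to 136886200, C1qc at 136889801 to 136892936 and C1qa at 136895916 to 136898844. Cd5l lies on chromosome 3 (87357881 to 87371074) and Cd163, its relative in the scavenger receptor cysteine-rich family, on chromosome 6 (124304636 to 124330529). Vcam1 lies on chromosome 3 (116110020 to 116129688), Spic on 10 (88675269 to 88683023), Hmox1 on 8 (75093618 to 75100593), Slc40a1 on 1 (45908070 to 45926532) and Adgre1 on 17 (57358581 to 57483529). RefSeq start-site windows of GRCm38.p6 were found for 5 members (Cd5l, Spic, C1qb, C1qc and Cd163). The 250 bases before the start are shown for C1qb and C1qc, whose levels had nearly 1 profile over the groups, and for Cd5l, whose profile differed most from that of C1qa. The RefSeq start of C1qc lies inside the span given in the count table. Capitals mark GAGGAA, or its complement TTCCTC, the core of the box bound by PU.1 and Spi-C.
C1qb, chr4:136886201-136886450, minus strand: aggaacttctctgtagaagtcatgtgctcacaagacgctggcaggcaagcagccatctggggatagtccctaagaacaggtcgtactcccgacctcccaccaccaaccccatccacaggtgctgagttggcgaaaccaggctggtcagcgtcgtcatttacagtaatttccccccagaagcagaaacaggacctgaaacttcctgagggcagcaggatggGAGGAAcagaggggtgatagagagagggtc
C1qc, chr4:136892915-136893164, minus strand: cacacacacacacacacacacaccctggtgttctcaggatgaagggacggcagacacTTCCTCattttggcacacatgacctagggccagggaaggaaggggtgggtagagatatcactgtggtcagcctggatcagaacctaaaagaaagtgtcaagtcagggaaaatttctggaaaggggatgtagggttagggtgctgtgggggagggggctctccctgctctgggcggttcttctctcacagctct
Cd5l, chr3:87357631-87357880, plus strand: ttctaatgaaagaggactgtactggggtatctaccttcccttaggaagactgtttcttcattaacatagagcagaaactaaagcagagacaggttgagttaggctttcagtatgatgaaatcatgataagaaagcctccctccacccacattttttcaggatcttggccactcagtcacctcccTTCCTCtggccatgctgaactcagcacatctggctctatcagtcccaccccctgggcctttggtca
GAGGAA, searched on both strands, stands 30 to 25 bases before the start of C1qb on the strand of the gene. On the opposite strand it stands 193 to 188 bases before the start of C1qc and 66 to 61 before that of Cd5l. It was not in the windows of Spic and Cd163. Of all 32851 windows of that length in the table, 23.3% hold it. The letters TGCTGAC (a MAF core element, 3.81% of windows) and TATAAA (12.4%) were in none of the 5 windows. A match describes the sequence and is no evidence of binding.

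The 10 genes together were highest in KO7. Their summed level was 3792 ± 19.4 CPM there (SD, n = 3), against 1574 ± 16.7 in WT6, 1561 ± 7.60 in WT0 with ERG-245, 1376 ± 8.42 in KO3 and 1133 ± 10.6 in WT0 with PBS. These sums are 0.377%, 0.164%, 0.148%, 0.142% and 0.112% of counts. In bulk RNA, more cells of a type and more RNA per cell cannot be told apart. Each member was highest in KO7. Among all genes tested, edgeR called 32.2% higher in KO7 than in WT6, 34.5% than in WT0 with PBS and 34.6% than in KO3. The share of all genes that were highest in KO7 was not counted. The ratio of the KO7 mean to that of the next group ran from 1.47 for C1qa to 3.39 for Hmox1. Per kilobase of exon, C1qb led the members in KO7 (405 CPM per kb), followed by Hmox1 (371), C1qc (370), Vcam1 (322) and C1qa (299). Adgre1 (22.1 CPM per kb) and Cd163 were lowest.

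**Figure D1:**
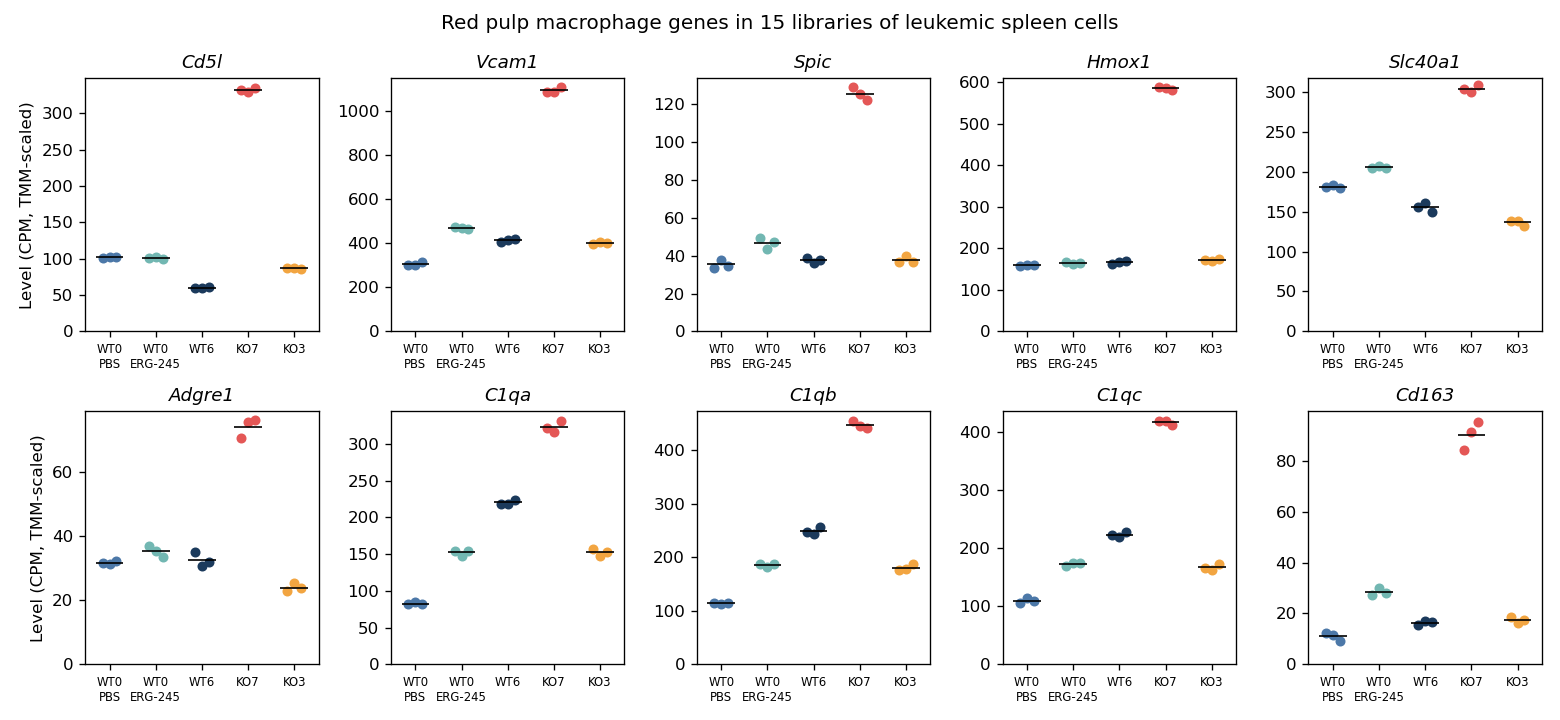
Level of each of the 10 members (CPM scaled by TMM, linear axis from 0) in the 15 libraries, 3 points per group with a line at the group mean. In every panel the 3 KO7 libraries lie above the other 12, and WT6 is the second highest group for C1qa, C1qb and C1qc. How many of all genes set KO7 apart in this way was not counted.

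The knock-out leukemia KO7 was first set against the wild-type leukemia WT6. The leading T cell receptor beta segment was Trbv5 in KO7 (79.1%) and Trbv19 in WT6 (54.5%). Each group is taken to be 1 leukemia, so genotype and leukemic clone cannot be told apart in this or the other knock-out comparisons. All 10 members rose (of the 15948 genes tested 32.2% rose and 36.7% fell), 6 of them at least 2-fold (9.29% of all genes). Their median log2 difference was 1.29, beside -0.026 over all genes tested. The hemoglobin receptor gene Cd163 and the secreted Cd5l rose most, and C1qa least.

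Cd163 stood at 84.2, 91.1 and 95.0 CPM in the KO7 libraries and at 15.6, 17.0 and 16.6 CPM in WT6. It stood at 27.3, 30.0 and 28.2 CPM in WT0 with ERG-245, at 12.4, 11.5 and 9.34 CPM in WT0 with PBS, and at 18.5, 16.4 and 17.6 CPM in KO3. The KO7 libraries lay far above all others, and WT6 and KO3 overlapped. Against WT6, Cd163 rose by log2 2.46 (SE 0.055, edgeR adjusted p = 1.4e-52). Hmox1 stood at 588, 585 and 583 CPM in KO7 and at 162, 167 and 169 CPM in WT6. In the other groups it lay between 157 and 175 CPM, so that 4 of the 5 groups shared a narrow range. Its log2 difference between KO7 and WT6 was 1.82 (SE 0.024, edgeR adjusted p = 1.62e-68). After KO7, KO3 did not pass against WT6 (edgeR adjusted p = 0.0563), nor WT6 against WT0 with ERG-245 (0.874) nor WT0 with ERG-245 against PBS (0.0834).

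Slc40a1, the iron exporter that acts after Hmox1, moved less. It stood at 303.7, 299 and 308 CPM in KO7, at 156, 160.3 and 150 CPM in WT6, and at 139, 139 and 133 CPM in KO3. WT0 libraries had 180.4, 183 and 179 CPM with PBS and 204, 207 and 205 CPM with ERG-245. No 2 groups overlapped, and KO3 was the lowest. The difference between KO7 and WT6 was log2 0.97 (SE 0.026, edgeR adjusted p = 3.62e-47).

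Spic, the transcription factor of the lineage, stood at 129, 125 and 123 CPM in KO7. It stood at 38.6, 36.2 and 38.0 CPM in WT6, 37.0, 40.0 and 36.9 in KO3, 33.7, 38.0 and 34.7 in WT0 with PBS, and 49.5, 43.7 and 47.3 with ERG-245. The libraries of WT6, KO3 and WT0 with PBS overlapped, and those with ERG-245 lay above them. The difference between KO7 and WT6 was log2 1.74 (SE 0.042, edgeR adjusted p = 9.88e-51).

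Vcam1, the adhesion molecule, rose as well. It stood at 1087, 1087 and 1107 CPM in KO7, at 407, 414 and 419 in WT6, and at 396, 404 and 399 in KO3. WT0 libraries had 301, 300.3 and 314 CPM with PBS and 471, 467 and 466 with ERG-245. KO7 was above all of these, and WT6 and KO3 lay side by side. The difference between KO7 and WT6 was log2 1.40 (SE 0.022, edgeR adjusted p = 1.26e-63). Stromal and endothelial markers, whose cells also make Vcam1, summed to 657 CPM in KO7 and 604 in WT6, with 8 of 17 higher and 8 lower. Of the 4 most abundant, Cxcl12 (55.9 to 159.5 CPM), Stab2 (46.9 to 121) and Pecam1 (135 to 153) were higher in KO7 and Pdgfrb (148 to 58.6) lower. Their part in the Vcam1 difference was not tested.

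Adgre1, the F4/80 antigen, stood at 70.5, 75.7 and 76.2 CPM in KO7, at 35.1, 30.7 and 32.0 in WT6, and at 22.8, 25.3 and 23.7 in KO3. WT0 with PBS had 31.6, 31.2 and 32.3 CPM, and with ERG-245 36.9, 35.5 and 33.5. WT6 overlapped with both WT0 groups, and KO3 lay below all others. The difference between KO7 and WT6 was log2 1.18 (SE 0.047, edgeR adjusted p = 6.76e-36).

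Cd5l stood at 333, 329 and 334 CPM in KO7, at 59.8, 60.1 and 60.8 in WT6, and at 87.3, 86.7 and 86.1 in KO3. In WT0 it stood at 102, 103 and 102 CPM with PBS and at 100.4, 102 and 99.4 with ERG-245. Among the members, Cd5l was the single one for which WT6 was the lowest group. Between KO7 and WT6 it differed by log2 2.46 (SE 0.029, edgeR adjusted p = 4.7e-72), and between KO7 and WT0 with PBS by 1.70.

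KO7 and then WT6 were the highest groups for each C1q gene. C1qb stood at 455, 446 and 442 CPM in KO7, at 248, 243 and 256 in WT6, and at 177, 178 and 188 in KO3. In WT0 it stood at 115, 113 and 115 CPM with PBS and at 187, 182 and 188 with ERG-245. KO7 was highest and WT6 second, with no overlap, and KO3 and WT0 with ERG-245 overlapped (edgeR adjusted p = 0.189 between them). C1qc had a mean of 418 ± 4.04 CPM in KO7 (SD, n = 3) and 224 ± 4.20 in WT6. Its KO3 libraries had 166, 163 and 174 CPM, and WT0 had 106, 115 and 109 CPM with PBS and 169.8, 174 and 175 CPM with ERG-245. C1qa, the chain that rose least, stood at 321, 316 and 332 CPM in KO7, at 219, 218 and 224 in WT6, and at 157, 148 and 153 in KO3. Its WT0 libraries had 81.5, 84.4 and 82.5 CPM with PBS and 155, 148 and 154 CPM with ERG-245, the second set overlapping with KO3. Between KO7 and WT6, C1qa, C1qb and C1qc rose by log2 0.55, 0.85 and 0.90 (SE 0.026, 0.024 and 0.025, edgeR adjusted p = 3.82e-32, 1.96e-45 and 1.73e-46).

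Against the other wild-type leukemia, WT0 with PBS, KO7 again had all 10 members higher (34.5% of all genes were higher and 34.9% lower), 9 of them at least 2-fold (8.64% of all genes), with a median log2 of 1.86 beside -0.0020 over all genes. Both comparisons share the KO7 libraries. C1qa differed by log2 1.96 here and by 0.55 against WT6, and Cd163 by 3.00 (SE 0.062, edgeR adjusted p = 9.81e-55) and 2.46. Cd5l went the other way, with 1.70 here and 2.46 against WT6. Slc40a1 (log2 0.75) was the member that did not reach 2-fold.

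KO3, the second knock-out leukemia, did not show this rise. Against WT6, Cd5l rose (log2 0.53, SE 0.033, edgeR adjusted p = 3.26e-24), 1 of 10 (27.7% of all genes rose). Slc40a1, Adgre1, C1qa, C1qb and C1qc fell, 5 of 10 (32% of all genes fell), by log2 -0.19, -0.45, -0.53, -0.46 and -0.41. Vcam1 (-0.048), Spic (0.012), Hmox1 (0.056) and Cd163 (0.099) did not pass, with edgeR adjusted p of 0.0581, 0.845, 0.0563 and 0.231. No member reached 2-fold (4.04% of all genes did upward and 7.46% downward). The median was log2 -0.12, beside -0.019 over all genes. Hmox1 passed without WT6 replicate 3 (edgeR adjusted p = 0.0206) or KO3 replicate 2 (0.0446), and Vcam1 without WT6 replicate 1 (0.049). Both knock-out comparisons share the WT6 libraries.

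Set against WT0 with PBS, KO3 had 6 members higher (34.1% of all genes rose) and 3 lower (32.4% fell), with 0 at least 2-fold (4.45% of all genes up and 7.8% down). The C1q genes led the rise, with C1qa from 82.8 to 153 CPM (log2 0.88, SE 0.031, edgeR adjusted p = 2.81e-39), followed by C1qb (0.66), Cd163 (0.64), C1qc (0.61), Vcam1 (0.39) and Hmox1 (0.11). Slc40a1 (-0.41), Adgre1 (-0.40) and Cd5l (-0.24) fell, and Spic (0.097, edgeR adjusted p = 0.0885) did not pass, but did without WT0 PBS replicate 2 (0.013). Cd5l and the C1q genes thus went in opposite directions depending on the wild-type leukemia used. Cd5l in KO3 was above WT6 and below WT0, and each C1q gene was below WT6 and above WT0.

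**Figure D2:**
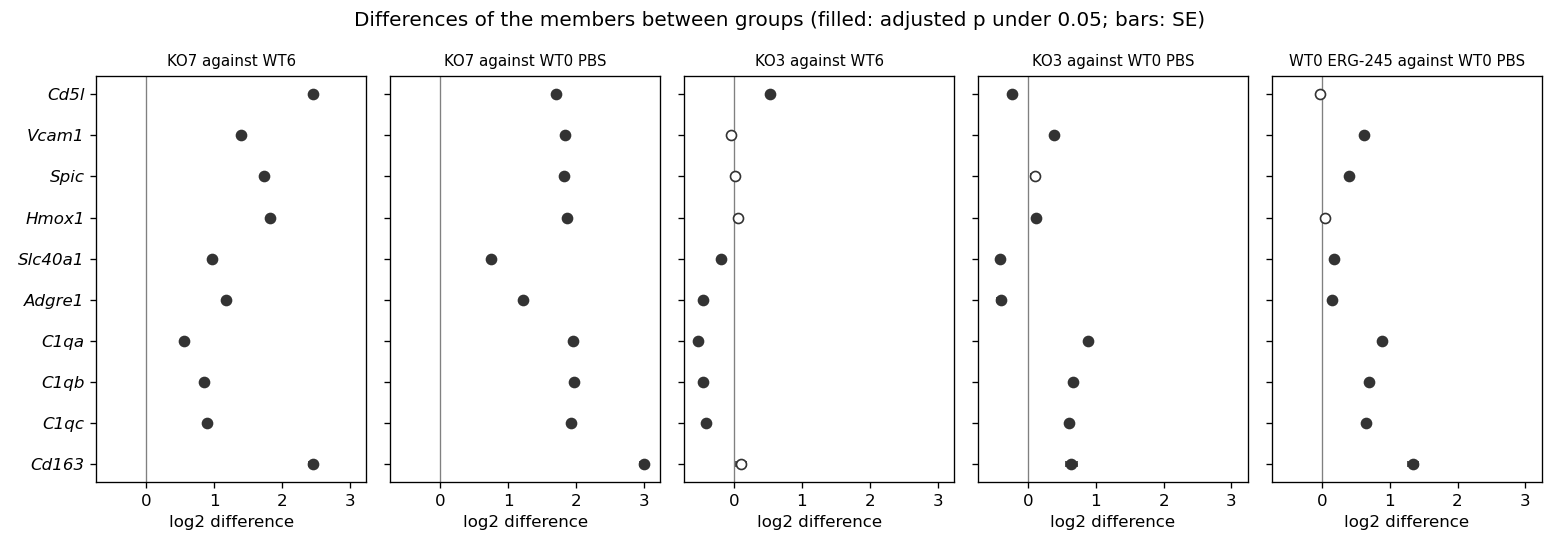
Differences of the 10 members in 5 comparisons (horizontal axis, log2; points, edgeR estimates; bars, SE, often shorter than the point; filled points, adjusted p under 0.05). All points lie to the right of 0 for KO7 in both comparisons, whereas those of KO3 lie on both sides.

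Compared directly, KO3 was lower than KO7 for all 10 members (34.6% of all genes were lower and 36.1% higher), all at least 2-fold (12.3% of all genes), with a median log2 of -1.54 beside 0.013 over all genes. The smallest difference was that of C1qa (log2 -1.08, SE 0.027, edgeR adjusted p = 1.94e-49) and the largest that of Cd163 (log2 -2.36, SE 0.057, edgeR adjusted p = 1.45e-50). For each member, KO3 was thus nearer to either wild type (at most log2 0.88 away, C1qa against WT0) than to KO7.

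With the leukemia as the replicate (libraries added up, both knock-outs against WT6 and the PBS libraries of WT0), 0 of 10 members and 0 of 17226 genes (0% called) passed edgeR's test. At an unadjusted p under 0.05, 226 genes and 0 members were found, and DESeq2 called 46 genes, again with 0 members. Cd163 came nearest, at 91.6 and 17.8 CPM in KO7 and KO3 against 16.4 and 11.4 CPM in WT6 and WT0 (log2 1.98, SE 0.78, unadjusted p = 0.0526, edgeR adjusted p = 1). In these sums KO3 lay close to WT6 for Cd163 (17.8 and 16.4 CPM), Spic (38.7 and 37.9) and Hmox1 (176 and 167). With libraries as replicates, edgeR's adjusted p between KO3 and WT6 was 0.231, 0.845 and 0.0563 for these genes. Without KO7, the differences of Slc40a1 and Adgre1 became log2 -0.28 and -0.41.

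To evaluate the inhibitor, WT0 with ERG-245 was compared with WT0 with PBS. Of 10 members, 8 rose (33% of all genes rose) and 0 fell (32.8% of all genes fell), 1 of them at least 2-fold (5.67% of all genes), with a median log2 of 0.51 beside -0.0010 over all genes. Cd163 rose from 11.1 ± 1.59 to 28.5 ± 1.37 CPM (SD, n = 3, log2 1.34, SE 0.074, edgeR adjusted p = 2.53e-27). The C1q genes rose by log2 0.88 (C1qa), 0.70 (C1qb) and 0.65 (C1qc), Vcam1 by 0.62 and Spic by 0.40 (edgeR adjusted p = 8.56e-11). Slc40a1 (log2 0.18) and Adgre1 (0.16, edgeR adjusted p = 0.0111) rose least. Adgre1 did not pass without ERG-245 replicate 1 (edgeR adjusted p = 0.0754), nor with no filter on low counts (0.0512). Cd5l (log2 -0.023, edgeR adjusted p = 0.538) and Hmox1 (0.052, edgeR adjusted p = 0.0834) did not pass. The leading T cell receptor segment differed between these groups, as given earlier. Neutrophil markers summed to 74.7 CPM without the inhibitor and 9.15 CPM with it (0 of 10 tested higher, 7 lower), and erythroid markers to 42580 and 51850 CPM (15 of 19 higher, 1 lower, or 2 lower with no filter). B cell markers summed to 113 and 47.0 CPM (0 of 9 higher, 8 lower, median log2 -1.69), and immunoglobulin genes to 2401 and 8048 CPM. The part of these in the members' rise was not tested.

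The wild-type leukemias differed from each other as well. In WT6, as compared with WT0 with PBS, 6 members were higher (36.8% of all genes) and 2 lower (35.6%), and 3 were higher by at least 2-fold (9.15%) and 0 lower (9.74%). The 3 were C1qa, which went from 82.8 to 220.3 CPM (log2 1.41, SE 0.030, edgeR adjusted p = 1.12e-54), C1qb (1.12) and C1qc (1.02). Cd163 (0.54) and Vcam1 (0.44) were higher too, and Cd5l (-0.76) and Slc40a1 (-0.22) lower. Hmox1 (0.057) passed narrowly (edgeR adjusted p = 0.0447) and did not with DESeq2 (adjusted p = 0.0614), nor in edgeR without WT0 PBS replicate 1 (0.159) or 3 (0.0639) or WT6 replicate 2 (0.0927) or 3 (0.141). Spic (0.085) and Adgre1 (0.047) did not pass, though Spic did without WT0 PBS replicate 2 (0.0204).

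Levels were next expressed relative to C1qa, C1qb and C1qc together within each library. The other 7 members together had a ratio of 2.69 ± 0.035 in WT0 with PBS (SD, n = 3), 2.19 ± 0.023 in KO7, 2.06 ± 0.032 in WT0 with ERG-245, 1.75 ± 0.058 in KO3 and 1.27 ± 0.026 in WT6. The members thus did not keep 1 proportion. KO7, highest by level, was second by this ratio, though highest when the tissue macrophage list took the place of C1q (0.666, against 0.604 in WT0 with PBS). Cd5l had a ratio of 0.333 ± 0.0030 in WT0 with PBS, 0.280 ± 0.0019 in KO7 and 0.0870 ± 0.0013 in WT6. Hmox1 likewise had 0.519 ± 0.0037, 0.493 ± 0.0025 and 0.240 ± 0.0058. Slc40a1 had 0.589 ± 0.0063 in WT0 with PBS and 0.256 ± 0.0035 in KO7, close to its 0.273 ± 0.014 in KO3 and 0.224 ± 0.012 in WT6. With C1q as the denominator, Cd163 alone of the 7 had its highest ratio in KO7, at 0.0759 ± 0.0050, against 0.0558 ± 0.0032 with ERG-245 and 0.0236 ± 0.0012 in WT6. This order depends on the denominator. Relative to the tissue macrophage list, 5 of the 7 had their highest ratio in KO7, namely Cd163 (0.0230), Cd5l (0.0849, against 0.0748 in WT0 with PBS), Hmox1 (0.150 against 0.117), Vcam1 (0.280, against 0.270 with ERG-245) and Spic (0.0321 against 0.0270). Relative to C1q, WT6 had the lowest mean for all 7, though for Adgre1 its libraries overlapped with those of KO3 (means 0.0471 and 0.0478). Relative to the list, WT6 was lowest for Cd5l, Vcam1, Spic and Hmox1. Slc40a1 was then lowest in KO7 (0.0776, WT6 0.0789), Adgre1 in KO3 (0.0159, WT6 0.0166) and Cd163 in WT0 with PBS (0.00812, WT6 0.00831). These ratios are descriptions without a test. With 3 libraries against 3, an exact permutation test cannot reach the threshold.

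**Figure D3:**
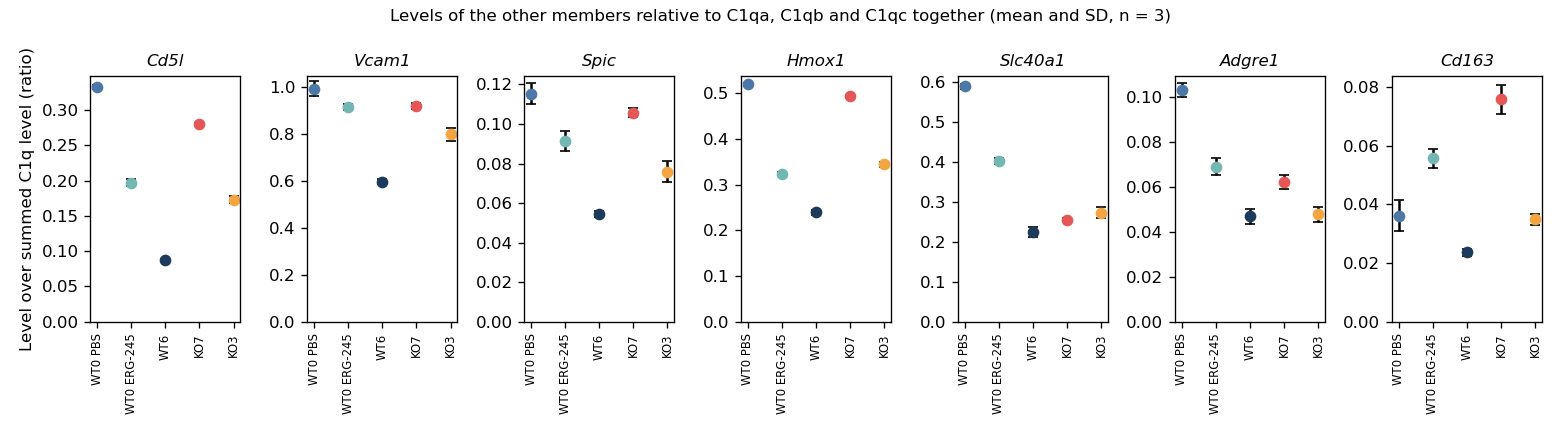
Level of each of the 7 other members divided by the summed level of C1qa, C1qb and C1qc (vertical axis, ratio from 0; points, mean of 3 libraries; bars, SD). With this denominator WT6 has the lowest mean ratio for each of the 7 members, though for Adgre1 it overlaps with KO3. Cd163 alone is highest in KO7. With the tissue macrophage list as denominator, not plotted, WT6 is lowest for 4 of the 7 and KO7 highest for 5.

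Within C1q, C1qb held 0.359 to 0.377 of the trio's CPM in the group means, C1qa 0.270 to 0.318 and C1qc 0.323 to 0.358. Over the 5 group means, the centred log2 profiles of C1qb and C1qc differed by a root mean square of 0.030, the smallest difference between any 2 members, and those of C1qa and Cd5l by 0.76, the largest. Among the 5 other genes of at least 1 CPM nearest to the mean profile of the 10 members were Gpd1, a glycerol-phosphate dehydrogenase (root mean square 0.098 over 5 group means), Vnn3 (0.10) and Cfp, the complement factor properdin (0.11). For 9 single members the nearest genes were Siglece for Cd5l (0.20), Pirb for Spic (0.11), Clec4b1 for Hmox1 (0.12), Sox17 for Slc40a1 (0.052), Scarf2 for Adgre1 (0.054), Ddit4 for C1qa (0.080), Akap12 for C1qb and C1qc (0.099 and 0.093) and Mrap for Cd163 (0.19).

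Other tissue macrophage genes rose with the members in KO7. Of 26 listed, 25 were tested, and 22 rose and 1 fell in KO7 against WT6 (median log2 0.96). Apoe, the lipid carrier, went from 645 to 1262 CPM, Csf1r, the receptor of the macrophage growth factor, from 217 to 439, the inhibitory receptor Sirpa from 155 to 301 and the protease Lgmn from 143 to 296. In KO3 against WT6, 2 rose and 18 fell (median log2 -0.39), with Csf1r at 179 CPM, and 1 rose with DESeq2, with no filter, or without WT6 replicate 1, WT6 replicate 2 or KO3 replicate 2. In KO7 against WT6, 2 fell without KO7 replicate 1 or 2. With ERG-245 15 rose and 3 fell (median 0.30). KO3 was lower than KO7 in 24 of 25. Against WT0 with PBS, 11 rose and 11 fell in KO3 (median log2 -0.086), whereas 6 members rose and 3 fell. Clec4f, a marker of liver Kupffer cells named here for its absence, had 0 counts in 4 groups.

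Genes of heme and iron handling rose in 15 of 20 tested and fell in 3 in KO7 against WT6 (median log2 0.64). The ferritin chains that store iron were among them, Fth1 from 692 to 1617 CPM and Ftl1 from 1024 to 1610, as were the biliverdin reductase Blvrb (97.6 to 366) and the iron carrier Trf (127 to 278). In KO3 against WT6, 8 rose and 9 fell (median -0.038), and with ERG-245 11 rose and 3 fell (median 0.22). Blvrb was 286 CPM in WT0 with PBS and 556 with ERG-245, above its KO7 level, which was not so for any member. Red cell precursors also make ferritin and Blvrb. NRF2 targets, of which Hmox1 can be one, rose in 11 of 15 and fell in 3 in KO7 against WT6 (median 0.62). With ERG-245 12 of 15 rose and 2 fell (median 0.65), while Hmox1 did not pass. Of the 4 most abundant, Taldo1 of the pentose phosphate pathway rose from 219 to 344 CPM and the peroxiredoxin Prdx1 from 337 to 372, whereas thioredoxin (Txn1) fell from 403 to 371 and glutathione reductase (Gsr) from 216 to 177. In KO3 against WT6, 7 of the 15 rose and 4 fell.

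Of the complement genes outside C1q, 9 of 20 rose and 5 fell in KO7 against WT6 (median log2 0.13), and 15 rose and 4 fell in KO7 against WT0 with PBS (median 0.72). Properdin (Cfp) went from 125 to 273 CPM, whereas C3, the central component, went from 713 to 167 CPM. C1qbp, which encodes a mitochondrial protein that also binds C1q, stood at 143 and 152 CPM, and the regulator Cr1l at 65.3 and 67.9. In KO3 against WT6, 3 rose and 12 fell, and with ERG-245 12 rose and 4 fell. Of 16 monocyte genes, 5 were higher and 11 lower in KO7 than in WT6 (median log2 -1.12), whereas 9 were higher and 4 lower in KO7 than in WT0 with PBS (median 1.16). From WT6 to KO7, lysozyme (Lyz2) went from 415 to 53.5 CPM, Fn1 from 112 to 22.9 and Plac8 from 152 to 61.3, while the Fc receptor gene Fcgr4 went from 29.7 to 162. In KO3 against WT6, 3 rose and 11 fell, and with ERG-245 8 rose and 5 fell.

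Markers of other cells are given beside the members. All 19 erythroid markers rose in KO7 against WT6, and their summed level was 57930 to 61380 CPM in the KO7 libraries, 11690 to 13380 in WT6, 11330 to 11740 in KO3, and in WT0 41210 to 43420 without and 49690 to 53680 with the inhibitor. KO7, richest in erythroid RNA, had the highest summed level of the members, and WT0 with PBS, also rich in it, the lowest. WT0 with ERG-245, rich in it, and WT6 and KO3, poor in it, lay between. From WT6 to KO7 the beta globin genes Hbb-bs and Hbb-bt went from 5619 to 24600 and from 1357 to 6853 CPM, and the alpha globin genes Hba-a1 and Hba-a2 from 2259 to 11690 and from 1143 to 6053, values that are uncertain because near-identical globin genes share reads. Neutrophil markers summed to 340.3 to 363 CPM in WT6, 139 to 147 in KO7, 187 to 191 in KO3, and in WT0 74.1 to 75.8 without and 8.51 to 9.79 with the inhibitor. In KO7 against WT6, 9 of 10 tested neutrophil markers fell and 1 rose (0 with DESeq2), 8 of 9 B cell markers fell and 0 rose, 6 of 8 dendritic cell markers fell and 1 rose, and 10 of 12 T cell markers fell and 2 rose. Summed levels in KO7 and WT6 were 39.0 and 153 CPM for B cells, 73.9 and 87.9 for dendritic cells and 5188 and 5630 for T cells. The part of these cells in the members' differences was not tested.

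**Figure D4:**
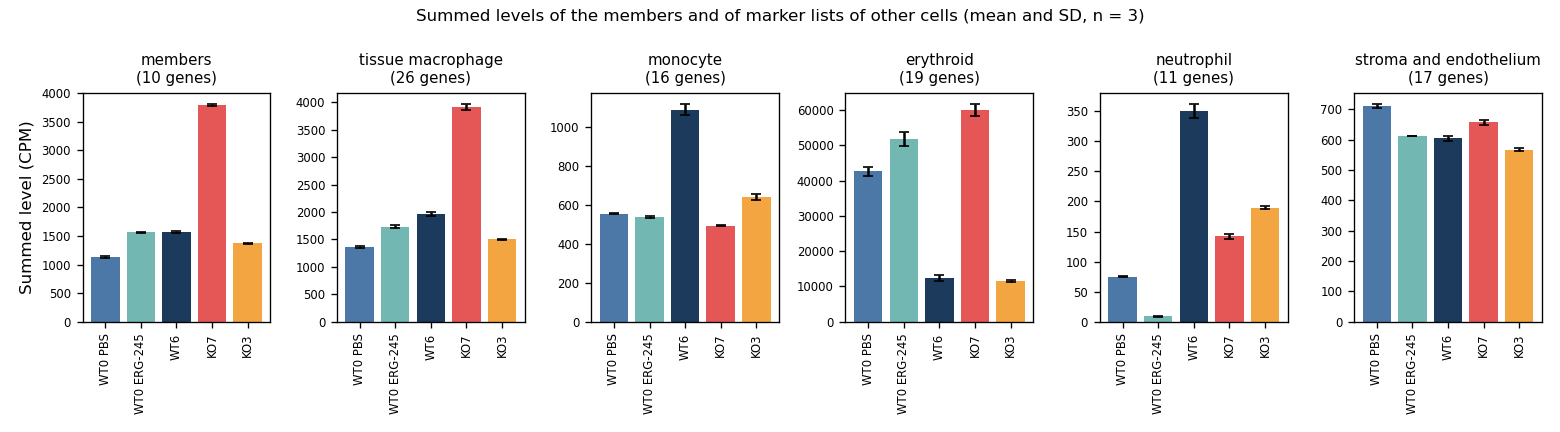
Summed levels (CPM, axes from 0, a scale of its own in each panel) of the members and of 5 marker lists, as group means with SD over 3 libraries. The members and the other tissue macrophage genes share their highest bar in KO7, the monocyte and neutrophil lists have theirs in WT6, and the erythroid list is high in both WT0 groups and KO7.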

How the data were processed

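Per the file headers, the deposited counts are raw fragment counts per gene made by the authors with featureCounts 2.0.1 (both ends mapped, no chimeric fragments, minimum overlap 25 bases, strand setting 2) on RefSeq exons of GRCm38.p6. The submitters' processing notes list STAR, Trim Galore, DESeq2, Subread and mm10 without settings. Per the labels, libraries were made with a stranded mRNA kit. The labels give PBS for WT0 controls, whereas alignment names in the file header say DMSO. Counts of 39827 genes were read, and 3 genes with broken lines were left out. Of the gene IDs, 39743 had a symbol, and 0 value columns belonged to other samples.

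Counts were analysed with edgeR 4.0.16 in R 4.3.3: filterByExpr by group (15948 genes), TMM scaling and 1 quasi-likelihood fit to the 15 libraries (10 residual degrees of freedom), checked on simulated data. A gene rose or fell at a Benjamini-Hochberg adjusted p under 0.05 over all genes tested. Counts summed per leukemia (17226 genes, 2 residual degrees of freedom) were tested alike. All 10 members passed the filter on low counts. Levels are CPM on the TMM scale, and the exon length in the table gave CPM per kb. The members and the lists were chosen with earlier results of these data known. Genes named from a list are among its 4 of highest mean CPM, all 4 being given for the pathway, macrophage, monocyte, stromal and erythroid lists, and none for the neutrophil, B, dendritic and T cell lists. Other list genes named were chosen after their values were seen. Nearest profiles use the root mean square difference of centred log2 group means (0.1 CPM added). Alternatives were DESeq2 1.42.0, its size factors, scaling without erythroid and immunoglobulin genes, no filter, fits to 2 groups, a replicate block and leaving out each library. Some of the nearest profiles are not reported here.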

Additional observations from a re-analysis of the deposited data

Results flagged for a closer look

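Each member differed between KO7 and KO3, by edgeR's test of KO3 minus KO7 (all adjusted p under the threshold). Of all genes, 34.6% were lower in KO3 and 36.1% higher. WT6 drops out when the comparisons with it are subtracted, so this test sets leukemia against leukemia. It does not isolate an effect of the knock-out. The log2 differences were -1.94 for Cd5l, -1.45 for Vcam1, -1.73 for Spic, -1.76 for Hmox1, -1.15 for Slc40a1, -1.63 for Adgre1, -1.08 for C1qa, -1.31 for C1qb, -1.32 for C1qc and -2.36 for Cd163. With each library left out in turn, Cd163 ranged from -2.41 to -2.32 and C1qa from -1.10 to -1.05, and all 10 members stayed lower in KO3 and past the threshold.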

How the results depend on the processing

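Over all alternatives, 887 log2 values of members kept their direction and side of the threshold, 11 lost the call, 7 gained it and 5 changed sign. The sign changed for Spic between KO3 and WT6 (range over left-out libraries log2 -0.024 to 0.037, below 0 without WT6 replicate 2 or KO3 replicate 2), Adgre1 between WT6 and WT0 with PBS (-0.013 without WT6 replicate 1, up to 0.092) and, across leukemias, Slc40a1 (-0.28 without KO7, up to 0.86) and Adgre1 (-0.41 without KO7, up to 1.21). The number of members higher in KO3 than in WT6 was 2, not 1, with DESeq2 size factors and in the fit to these 2 groups, and 1 to 2 when a library was left out, by Hmox1. Across leukemias, 46 genes passed with DESeq2, 8 with no filter and 0 to 7 with 1 leukemia left out (3 without WT0, 7 without WT6), against 0. Plain library totals gave summed levels of 1477 CPM in WT0 with ERG-245, 1639 in WT6 and 1415 in KO3. Scaling without erythroid and immunoglobulin genes gave 1181 CPM for the PBS and 1636 for the ERG-245 libraries of WT0, then 1651 for WT6, 3978 for KO7 and 1444 for KO3. With the tissue macrophage list in place of C1q, the ratio of the 7 other members was 0.604, 0.606, 0.448, 0.666 and 0.581 in the same order, so that KO7 was then highest. The cause of these changes was not tested. Replicate numbers were not paired by the data (correlations of deviations -0.050 to 0.033, 0 of 21 pairs above 0.1, and 2 of 15 libraries nearest to their own number). With the replicate block, 1 member rose and 5 fell in KO3 against WT6, and in WT6 against WT0 with PBS Hmox1 did not pass (adjusted p = 0.0602). The number of called members was within 1.5 times that given for each other comparison. Of 1001 list counts, 25 moved further.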

Other observations

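Some genes of the fixed lists, chosen after their values were seen, are given beside the members. Vsig4, a complement receptor of tissue macrophages, stood at 2.91 CPM in KO7 and at 0.187 to 0.438 CPM in the other groups (log2 3.41 against WT6, edgeR adjusted p = 6.05e-15). Fcgr4 and Cd14, receptors of monocytes and macrophages, were higher in KO7 than in WT6 by log2 2.45 and 2.29. Both are from the monocyte list, of which 5 genes rose and 11 fell there (median log2 -1.12). From the tissue macrophage list, of which 22 rose and 1 fell, the mannose receptor Mrc1 and the integrin Itgad were higher by 1.75 and 1.87. Marco, a scavenger receptor of the marginal zone, stood at 23.3 CPM in WT0 with PBS and 7.61 with ERG-245 (log2 -1.62), whereas 8 members rose there. The Fc receptor gene Fcgr1 rose with ERG-245 (log2 1.18). Retnla, a secreted marker of alternative activation, stood at 110.2 CPM in WT6, 28.7 in KO3, 5.53 in WT0 with ERG-245, 3.71 in KO7 and 0.546 in WT0 with PBS, an order that none of the members had.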
